A study of Mus musculus with 2 samples.

Results

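Zscan4 genes code for zinc finger proteins with a SCAN domain and are best known from the mouse embryo, where they are switched on at the 2-cell stage. In cultured mouse embryonic stem (ES) cells they are transcribed in bursts, so that at any time a small minority of cells, called 2-cell-like cells, holds most of the transcript. Their products are known for a role in keeping telomeres long and the genome stable. The 5 members described here are Zscan4b, Zscan4c, Zscan4d, Zscan4e and Zscan4-ps2, which were picked by name from the 26127 probes (1 per gene) of both libraries. They were picked with their difference between the libraries already known, so that difference is described here and no test supports it.

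Both libraries came from 129S1/SvImJ mouse ES cells at low passage, grown in serum with leukemia inhibitory factor. WT cells carried normal H3.3 genes. G34R cells were heterozygous for a targeted H3f3a allele, from which a minigene with the glycine to arginine change at position 34 of histone H3.3 was read from the gene's own promoter after Cre had excised a WT minigene and neo. They kept a normal H3f3a allele and both H3f3b alleles. Which clone was sequenced, and whether the WT line was its direct parent, is not given in the sources used here. There was 1 library per cell line, so no value has a replicate and no test between the cell lines was possible.

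Of the 9 Zscan4 names searched, 6 had a probe, namely the 5 members and Zscan4f, and Zscan4a, Zscan4-ps1 and Zscan4-ps3 had none. All 6 copies lie on chromosome 7 of the mm9 assembly. Zscan4b is at chr7:11486098-11490399 on the minus strand and Zscan4c at chr7:11591071-11595896 on the plus strand. Zscan4d (chr7:11746992-11751497) and Zscan4e (chr7:11891727-11896031) are on the minus strand. Zscan4f (chr7:11983264-11988090) and Zscan4-ps2 (chr7:12099659-12104460) are on the plus strand. From Zscan4b to Zscan4-ps2 the cluster spans 618.4 kb. Each copy has 4 exons in GENCODE M1.

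The copies are so alike that a short read often cannot be tied to 1 of them. Over the coding sequence the 15 pairs of copies were between 96.64% and 99.74% identical, and 67 of 1521 aligned columns differed in any copy. Zscan4b and Zscan4e differed at 4 bases, as did Zscan4f and Zscan4-ps2. Zscan4d stood furthest apart, with 26 bases that no other copy had, against 1 to 3 in each of the others. The 50 coding bases from 716 to 765, in exon 4, are shown because they hold more of the differing columns than any other stretch as long as a read. Capitals mark the 8 positions at which the copies differ. In mm9 they lie at chr7:11486899-11486948 (Zscan4b, minus strand), chr7:11594540-11594589 (Zscan4c, plus), chr7:11748026-11748075 (Zscan4d, minus), chr7:11892528-11892577 (Zscan4e, minus), chr7:11986733-11986782 (Zscan4f, plus) and chr7:12103103-12103152 (Zscan4-ps2, plus).
Zscan4b: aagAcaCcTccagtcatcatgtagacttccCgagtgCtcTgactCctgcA
Zscan4c: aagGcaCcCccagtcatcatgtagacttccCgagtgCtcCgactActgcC
Zscan4d: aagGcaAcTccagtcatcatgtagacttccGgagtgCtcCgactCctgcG
Zscan4e: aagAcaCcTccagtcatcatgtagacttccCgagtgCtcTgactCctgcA
Zscan4f: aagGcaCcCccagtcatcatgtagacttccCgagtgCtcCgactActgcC
Zscan4-ps2: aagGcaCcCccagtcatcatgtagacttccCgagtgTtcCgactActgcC
Even here Zscan4b and Zscan4e had the same letters, and so did Zscan4c and Zscan4f. A contrasting stretch, coding bases 1404 to 1453 of Zscan4b (chr7:11486211-11486260, exon 4, minus strand), is shown because every copy has the same letters there.
All copies: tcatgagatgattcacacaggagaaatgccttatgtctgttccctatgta
The longest run with no difference between the copies was 115 bp, longer than a 50 bp read.

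All 6 coding sequences are open from the start codon to the stop codon, with no stop in between. They encode 505 residues in Zscan4b and Zscan4e and 506 in Zscan4c, Zscan4d, Zscan4f and Zscan4-ps2. This holds for Zscan4-ps2 despite its name, and GENCODE M1 types it as protein coding, while RefSeq (GRCm38) types Zscan4-ps2 and Zscan4e as pseudogenes.

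The sequences just before the annotated starts were as close. Over the 250 bases upstream of each start, pairs of copies were between 94.8% and 99.6% identical over the bases that aligned. Each held the letters TATAAA, searched on the sense strand, exactly 1 time, whereas 8.35% of 22367 promoters of the same length held them. Nothing is read from this comparison, because the copies are near-identical here and their matches are not separate cases. The match began 31 bases before the start of Zscan4b, Zscan4c, Zscan4e and Zscan4f, 54 bases before that of Zscan4-ps2 and 65 before that of Zscan4d. The stretch around it is shown, with the match in capitals, so that the copies can be compared. It lies at chr7:11490407-11490470 (Zscan4b, minus strand), chr7:11591000-11591063 (Zscan4c, plus), chr7:11751539-11751602 (Zscan4d, minus), chr7:11896039-11896102 (Zscan4e, minus), chr7:11983193-11983256 (Zscan4f, plus) and chr7:12099565-12099628 (Zscan4-ps2, plus).
Zscan4b: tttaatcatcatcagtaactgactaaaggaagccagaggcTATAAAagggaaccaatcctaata
Zscan4c: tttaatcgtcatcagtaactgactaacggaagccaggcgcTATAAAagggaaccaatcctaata
Zscan4d: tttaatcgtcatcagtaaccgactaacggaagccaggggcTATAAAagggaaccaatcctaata
Zscan4e: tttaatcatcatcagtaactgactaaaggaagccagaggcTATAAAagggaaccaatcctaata
Zscan4f: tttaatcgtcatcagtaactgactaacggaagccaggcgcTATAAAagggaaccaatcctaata
Zscan4-ps2: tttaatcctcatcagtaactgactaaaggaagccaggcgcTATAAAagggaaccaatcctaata
The bases that follow the match are the same in all 6, and Zscan4b again equalled Zscan4e, as Zscan4c equalled Zscan4f. A match is a description of the letters and not of a site in use. Any link between these letters and the difference between the libraries was not tested.

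In these cells, all 5 members were expressed at a low level in WT and were close to absent in G34R. Values are reads per kb of transcript, scaled to the reads of the library (RPKM). Zscan4b, the highest member in WT cells, had 1.96 RPKM in WT and 0.04 RPKM in G34R. Zscan4c had 1.80 RPKM in WT and 0.11 RPKM in G34R, the highest member level left in G34R cells. Zscan4d had 1.60 RPKM in WT and 0.08 RPKM in G34R. In WT cells these 3 members had the higher levels of the family. Zscan4-ps2 had 1.25 RPKM in WT and 0.05 RPKM in G34R. Zscan4e, the lowest member in WT cells, had 1.07 RPKM in WT and 0.04 RPKM in G34R. The lowest member level in WT cells was 9.73 times the highest in G34R cells. Nothing is read from this gap, because the members were picked on this contrast, may share reads and are not replicates. Within the WT library the members differed by up to 1.83-fold. Zscan4f, which is no member, had 0.43 RPKM in WT and 0.01 RPKM in G34R.

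**Figure D1:**
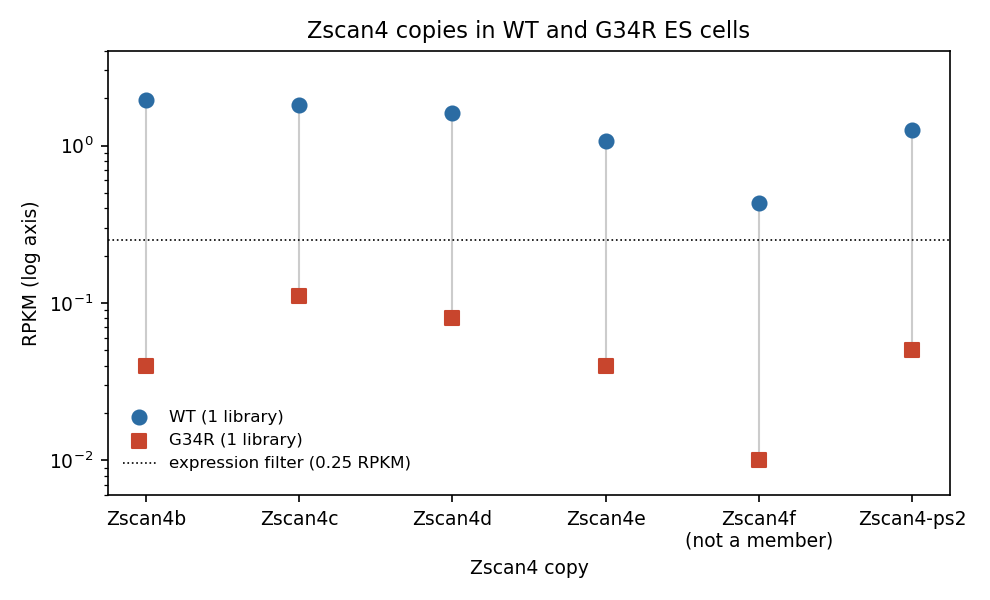
RPKM (log axis) of each Zscan4 copy in the WT library (blue circles) and the G34R library (red squares), with 1 library per cell line and a dotted line at 0.25 RPKM. WT levels of the 5 members lie between 1.07 and 1.96 RPKM and G34R levels between 0.04 and 0.11 RPKM, with Zscan4f below the members in both libraries.

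These levels rest on few reads in G34R cells. The files give no counts, and depth was estimated from the RPKM steps worth 1 read in short genes as 88 M reads for WT and 72.5 M for G34R. With each copy's exon length this gave about 301 reads for Zscan4b in WT cells and 5 in G34R cells. For Zscan4c the estimates were 364 and 18 reads, and for Zscan4d 280 and 12. Zscan4-ps2 had about 250 reads in WT and 8 in G34R, and Zscan4e 164 and 5. Every member thus had over 100 reads in the WT library and under 20 in the G34R library. Zscan4f had about 92 reads in WT and 2 in G34R.

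Each member's ratio is given as the log2 of its G34R over its WT RPKM, after raising any value below 0.01 RPKM to 0.01. It was -5.61 for Zscan4b, a 49-fold lower level in G34R, with an exact 95% binomial interval of 21.0 to 154-fold. Zscan4e had -4.74, 26.8-fold lower (11.3 to 84.3), and Zscan4-ps2 had -4.64, 25-fold lower (12.9 to 60.3). The interval of Zscan4b overlapped those of all the other members, but overlap of intervals is no test of a difference between members. The order of the ratios was not tested, and nothing is read from it, because the members may share reads and the libraries have no replicate. Zscan4d had -4.32, 20-fold lower (10.8 to 37.7), and Zscan4c had -4.03, 16.4-fold lower (10.4 to 28.4). Zscan4f had -5.43, 43-fold lower (10.2 to 318). The intervals cover counting error only, treat the estimated reads as whole counts of separate molecules, and hold no part for the spread between cultures or clones.

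All 5 members were more than 2-fold lower in G34R. Of the 13366 probes with at least 0.25 RPKM in 1 library, 9.64% were more than 2-fold lower, and 2.18% were more than 8-fold lower, as all 5 members were. Nothing is read from this comparison, because the members were picked on the same ratio. The median log2 ratio of the members was -4.64, beside -0.07 over the 13366 probes, which had quartiles of -0.42 and 0.27. From the lowest ratio upward, Zscan4b was at place 63 of 13366, Zscan4e at 126, Zscan4-ps2 at 132, Zscan4d at 163 and Zscan4c at 179. Over all 26127 probes, including the many under the filter, 61.0% lay below Zscan4e in WT cells and 67.3% below Zscan4b. The place of these WT levels among the 13366 probes past the filter was not taken.

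**Figure D2:**
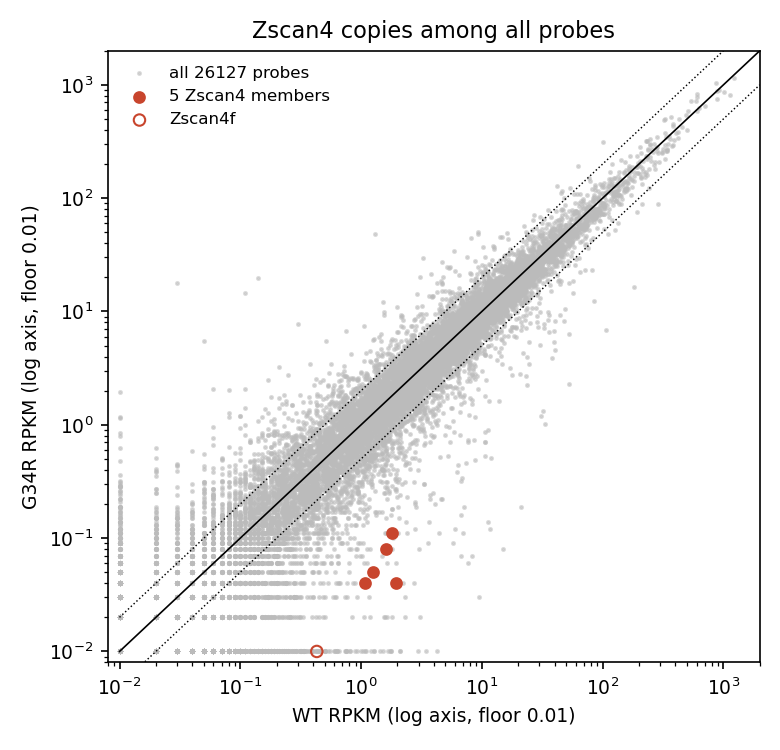
RPKM in the G34R library against the WT library (both log axes, values under 0.01 drawn at 0.01) for all 26127 probes (grey), the 5 Zscan4 members (filled red) and Zscan4f (open red). The solid line marks equal levels and the dotted lines a 2-fold difference, and all 6 copies lie below the lower dotted line.

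The question raised by such close copies is whether the levels of single members can be trusted as levels of single genes. Each transcript was cut into every 50-base window, the length of a read, and each window was looked up in the whole mm9 genome or in spliced transcripts of the family. Zscan4d had the most sequence of its own, with 50.2% of its windows found at no other place. Zscan4c followed with 16.7%, and the remaining members had 8.43% (Zscan4e), 7.55% (Zscan4b) and 4.49% (Zscan4-ps2). In Zscan4f the share was 2.24%. The values of Zscan4b, Zscan4c, Zscan4e and Zscan4-ps2 thus rest mostly on sequence that also matches another copy.

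Sharing was strongest within the pairs seen in the coding sequence. Zscan4b and Zscan4e each shared 88.1% of their windows with the other. Zscan4-ps2 shared 91.0% with Zscan4f and 71.3% with Zscan4c. Zscan4d shared at most 41.0% with any single copy, which was Zscan4f. The windows also matched 3 longer stretches of chromosome 7 with no annotated gene, at chr7:11379591-11384429, chr7:11650527-11655074 and chr7:12194634-12199368, and 3 shorter ones on the same chromosome. Reads of 1 copy could therefore have been placed at another copy or at a stretch that no probe covers. No window had more than 10 exact matches, which is the most places that the aligner accepts for a read by default.

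**Figure D3:**
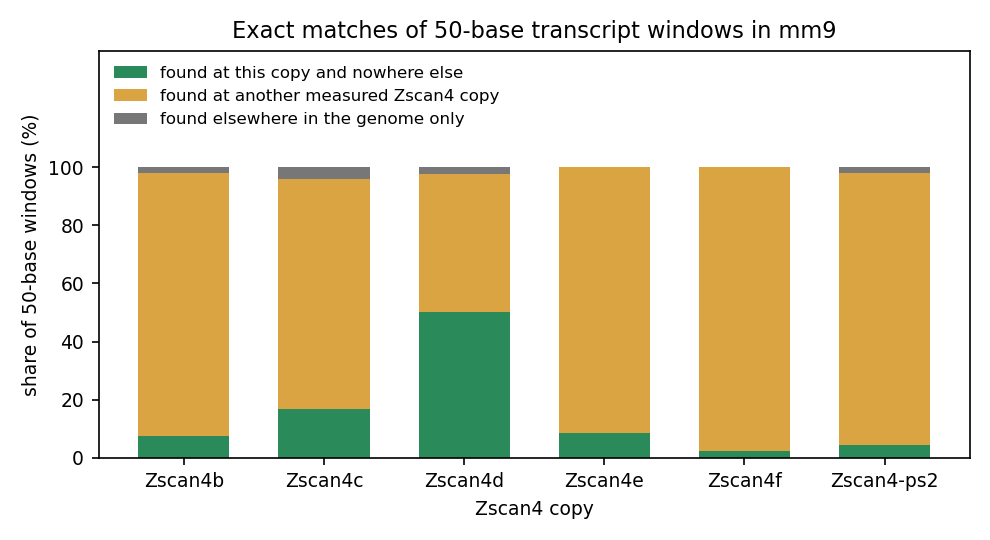
Share of the 50-base windows of each Zscan4 transcript (%, stacked bars) that occur in mm9 at that copy and nowhere else (green), also at another measured Zscan4 copy (yellow), or also elsewhere in the genome only (grey). Zscan4d has 50.2% of windows of its own and the other members between 4.49% and 16.7%.

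The difference between the libraries was also measured in ways that depend less on how reads were divided between the copies. Zscan4d, the member with the most windows of its own, was 20-fold lower in G34R. The RPKM of the 5 members summed to 7.68 in WT and 0.32 in G34R, 24-fold lower (counting interval 17.5 to 31.8), from about 1359 and 48 reads. Summed over all 6 measured copies, the RPKM was 8.11 in WT and 0.33 in G34R, 24.6-fold lower (18.0 to 32.4), from 1451 and 50 reads. Reads placed at the stretches without a probe are missing from both sums. Of the member sum, Zscan4b made up 25.5% in WT and 12.5% in G34R, and Zscan4c 23.4% in WT and 34.4% in G34R. With 5 and 18 reads left in G34R for these members, no shift between copies is read from those shares. The cells are 129S1/SvImJ and mm9 is C57BL/6J, and whether 129S1/SvImJ carries the same number and sequence of copies was not tested. In bulk RNA, fewer 2-cell-like cells and less Zscan4 RNA per cell cannot be told apart.

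Expressed genes around the cluster were within 2-fold. Within 500 kb of the outermost members lay 14 other probes, of which 12 were listed at 0 RPKM in both libraries. Of the 14, 10 were vomeronasal receptor genes (Vmn1r), known from sensory neurons. Apart from Zscan4f, the only probe between the members was Gm10991, which was among those at 0. The remaining pair had levels in both libraries. Zik1, a zinc finger gene, had 2.66 RPKM in WT and 1.75 RPKM in G34R (log2 ratio -0.60). Gm6900, 243.8 kb from Zscan4b, had 0.82 RPKM in WT and 0.88 RPKM in G34R (0.10). Both had levels in G34R cells above those of every member. On the other side the first probe with at least 0.25 RPKM, Zfp551, was 896.0 kb away and had 0.52 RPKM in WT and 0.59 RPKM in G34R. Over 1092 other such probes of chromosome 7 the median log2 ratio was -0.06.

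**Figure D4:**
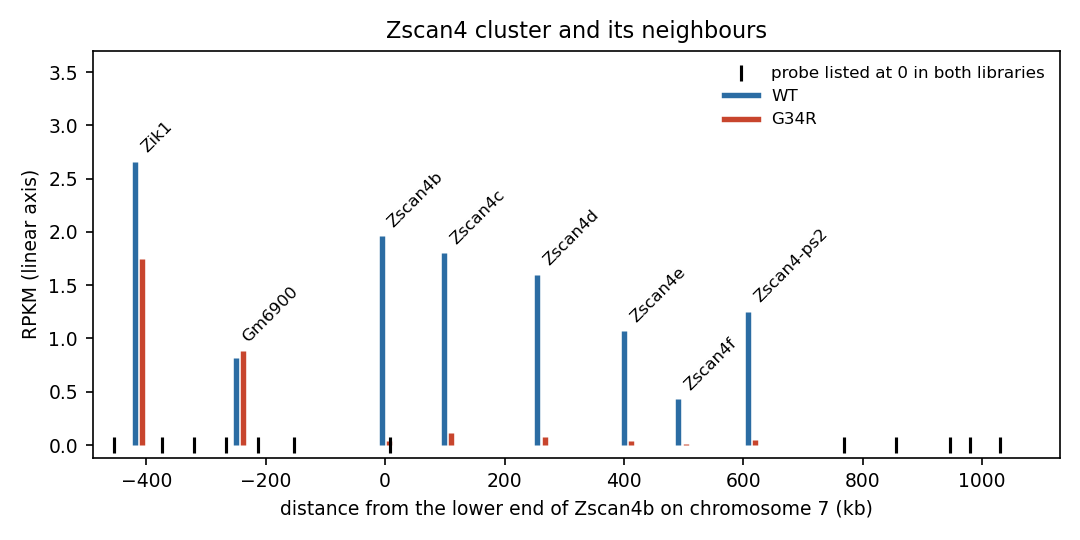
RPKM (linear axis) in WT (blue) and G34R (red) along chromosome 7, by distance in kb from the lower end of Zscan4b, for the 6 Zscan4 copies and the 14 other probes within 500 kb. Black ticks mark the 12 probes listed at 0 in both libraries, and the G34R bars of the Zscan4 copies lie close to 0 while those of Zik1 and Gm6900 do not.

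Other genes with a SCAN domain and zinc fingers were mostly level. Of 13 listed, 11 were measured and all 11 had at least 0.25 RPKM. Of these, 2 were more than 2-fold lower (9.64% of the 13366 probes were) and none was more than 2-fold higher (5.79% were). The median log2 ratio was -0.17. Zscan5b, also on chromosome 7, had 1.41 RPKM in WT and 0.17 RPKM in G34R (-3.05). Zscan30 had 0.29 and 0.14 RPKM (-1.05). Both genes passed the filter through their WT level alone and so had to be lower in G34R, and nothing is read from the count. Zscan10, a factor of the pluripotency network, was the highest of the list at 26.27 RPKM in WT and 17.27 in G34R (-0.61), within 2-fold.

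Other genes of the 2-cell-like state were next compared, from a list of 35 names without the members. Of these 24 were measured, and 9 reached 0.25 RPKM in 1 library. Of the 9, 7 were more than 2-fold lower in G34R, beside 9.64% of all probes past the filter, and none was more than 2-fold higher. Of these 7, 5 (Gm5662, Gm8300, BB287469, Dub1a and Gm4340) passed the filter through their WT level alone and so had to be lower in G34R, and nothing is read from the count. Of the 7, 4 were Eif1a-like genes on chromosome 12, which resemble a translation initiation factor. Gm5662 had 0.92 RPKM in WT and 0.03 in G34R (-4.94), and Gm8300 had 0.81 in WT and was listed at 0 in G34R. BB287469 had 0.39 and 0.01 RPKM (-5.29), while Gm2016 had 1.82 and 0.58 RPKM (-1.65). All 4 measured genes of this group were lower, but they may share reads as the Zscan4 copies do, which was not examined.

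Among Usp17-like deubiquitinase genes Dub1a passed the filter, with 0.45 RPKM in WT and 0.02 in G34R (-4.49). Gm4340 had 0.33 RPKM in WT and was listed at 0 in G34R, and Gm8994 had 3.81 and 1.88 RPKM (-1.02). Ddit4l and Pif1, the latter a DNA helicase, were within 2-fold, at 1.75 against 1.96 RPKM and 6.75 against 4.67 RPKM. The difference was therefore not seen in every gene of the list with a measurable level. The 15 measured genes under 0.25 RPKM had a lower value in G34R in 12, a higher one in 2 and the same in 1. These levels are too low to be read, and no share over all probes under the filter was taken. Nothing is read from this count.

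Among known activators of the Zscan4 genes, those with a measurable level were within 2-fold. Dux, the factor that binds upstream of many 2-cell genes, was barely detected in either library, at 0.03 RPKM in WT and 0.01 in G34R (log2 ratio -1.58). With the floor at 0.01 RPKM this is the lowest ratio it could have, so it cannot be set against those of the members. Dppa2 and Dppa4, which act upstream of Dux, had 18.50 and 23.15 RPKM in WT and 11.56 and 24.22 RPKM in G34R (log2 ratios -0.68 and 0.07). Tbx3, a T-box factor of ES cells, had 11.06 and 8.28 RPKM (-0.42). Of 4 activators with at least 0.25 RPKM, none passed 2-fold in either direction. Of all probes past the filter, 9.64% were more than 2-fold lower and 5.79% more than 2-fold higher.

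Among 26 genes known to hold the 2-cell-like state back, all had at least 0.25 RPKM. Of these, 1 was more than 2-fold higher in G34R and none was more than 2-fold lower. Over all probes past the filter the shares were 5.79% and 9.64%. The gene that was higher was Dnmt1, the maintenance DNA methyltransferase, with 8.14 RPKM in WT and 44.43 RPKM in G34R (log2 ratio 2.45). Trim28, the corepressor of KRAB zinc finger proteins, was the highest of the list and had 326.77 RPKM in WT and 222.49 in G34R (-0.55). Ncl (nucleolin) had 62.75 and 59.33 RPKM (-0.08) and Lin28a, an RNA-binding protein, 60.79 and 46.69 RPKM (-0.38). The median log2 ratio of the list was 0.01.

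KDM4A, KDM4B and KDM4C remove methyl groups from H3K9 and H3K36 and are the demethylases whose inhibition the study examined. Kdm4c had 14.37 RPKM in WT and 12.37 in G34R (-0.22), Kdm4a 8.92 and 9.53 RPKM (0.10), and Kdm4b 6.54 and 4.57 RPKM (-0.52). None of these 3 passed 2-fold. Kdm4d, which is not among the enzymes that the study examined, was under the filter, with 0.05 RPKM in WT and 0.01 RPKM in G34R (-2.32).

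Genes of telomere maintenance, the process in which Zscan4 is known to act, were mostly within 2-fold. Of 14 genes, all above 0.25 RPKM, 1 was more than 2-fold higher and none more than 2-fold lower, with a median log2 ratio of 0.21. Over the 13366 probes past the filter these shares were 5.79% and 9.64%. Acd, a subunit of the shelterin complex at telomeres, had 4.62 RPKM in WT and 10.99 RPKM in G34R (1.25). Meiotic recombination genes, listed because Zscan4 foci have been found with their products at telomeres, were split. Dmc1, a recombinase, had 1.06 and 3.66 RPKM (1.79), while Smc1b, a meiotic cohesin, had 6.29 and 0.44 RPKM (-3.84). Of the 4 with at least 0.25 RPKM the other two were within 2-fold, so these genes had no common direction.

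**Figure D5:**
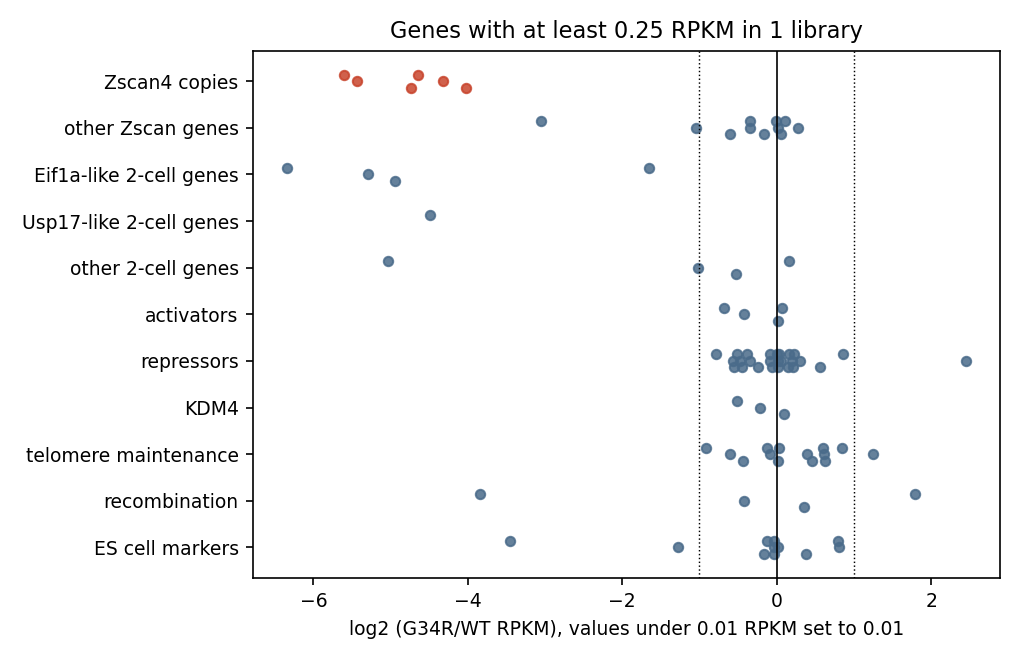
Log2 ratio of G34R to WT RPKM for each gene with at least 0.25 RPKM in 1 library (points), by gene list, with a floor of 0.01 RPKM and dotted lines at a 2-fold difference. The 6 Zscan4 copies (red) lie between -5.61 and -4.03, near most Eif1a-like 2-cell genes. Most of those Eif1a-like genes passed the filter through WT alone, so their direction was fixed. The activators and KDM4 genes drawn and most repressors lie within the dotted lines. Dux and Kdm4d were under the filter and are not drawn.

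The probes whose pair of levels was most like that of the members were found by distance on 2 axes, log2 WT RPKM and log2 ratio, from the members' medians. With 2 libraries this pattern holds only 2 values. The members themselves lay 0.32 to 1.01 log2 units from their medians, and 22 other probes lay within that reach. The nearest 10 were Calb2 (distance 0.13) and Ushbp1 (0.23) on chromosome 8, Slc1a1 (0.24) and 4930526L06Rik (0.42) on chromosome 19, Nlrp14 (0.24) and Nlrp9b (0.67) on chromosome 7, Slc5a4b (0.47), St8sia1 (0.48), Rcsd1 (0.56) and the Y-linked Ube1y1 (0.61). Nlrp14, an NLR family gene known from oocytes and early embryos, had 1.5 RPKM in WT and 0.07 RPKM in G34R. Slc1a1, a glutamate transporter, had 1.73 and 0.08 RPKM. None of the 10 was in the 2-cell lists.

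The libraries also differed outside the family. All 11 measured markers of ES cells exceeded 10 RPKM in both, and Pou5f1, the core pluripotency factor, had 194.34 RPKM in WT and 189.46 in G34R. Of these markers 2 were more than 2-fold lower in G34R, namely Nanog (127.07 and 52.24 RPKM) and Zfp42 (180.30 and 16.40 RPKM). Of all probes past the filter, 9.64% were more than 2-fold lower and 5.79% more than 2-fold higher. Markers of other cells were mostly low, apart from Tubb3 and Olig2, and not all level. Primitive endoderm markers summed to 2.07 RPKM in WT and 4.55 in G34R, with 3 of 7 more than 2-fold higher (Gata6, Gata4 and Sox17) and Afp at 0 in both. Trophoblast markers summed to 0.84 and 2.32 RPKM over 5 genes, with Eomes more than 2-fold higher. Fibroblast markers summed to 1.95 and 1 RPKM over 8 genes, with Pdgfrb more than 2-fold lower and Postn, Lum and Dcn at 0 in both. The 5 measured neural markers summed to 37.15 and 27.69 RPKM, and of these Tubb3 was lower (35.58 and 8.36 RPKM) and Olig2 higher (0.03 and 17.71 RPKM). Sox17 and Olig2 passed the filter through G34R alone and Pdgfrb through WT alone, so their directions were fixed. Nothing is read from these marker counts. All 5 chromosome Y probes with at least 1 RPKM in WT were more than 2-fold lower in G34R. These 5 were chosen on their WT level, and the share over all probes at that level was not taken. Hprt, a purine salvage gene, had 1.31 and 48.39 RPKM. H3f3a, the targeted gene, had 8.17 and 4.89 RPKM, a value that does not separate the alleles. The part of these differences in the Zscan4 result was not tested.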

How the data were processed

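RNA-seq of 1 WT and 1 G34R library was used. Per the labels and the study's methods, stranded 50 bp single-end reads of total RNA were aligned by the authors to mm9 with STAR 2.4.2a at default settings, and primary alignments were quantified in Seqmonk over merged isoforms with length correction. The deposited RPKM are given to 2 decimals. Because they are relative to the reads of the library, very high genes can shift every other value. An 0.01 RPKM floor, a filter of at least 0.25 RPKM in 1 library and a 2-fold threshold were applied, as each group had 1 library and no test was possible. Depth was estimated from RPKM steps of genes up to 800 bp with at most 6 reads (95.8% and 95.4% of values within 0.2 reads of a whole number). One read on 1 kb is then worth 0.0114 RPKM in WT and 0.0138 RPKM in G34R. Intervals are exact binomial at the 95% level. Exon lengths and sequences came from GENCODE M1 and mm9, and 26055 of 26127 probes matched a gene. Coding sequences were aligned with MAFFT 7.526, and windows were searched with numba 0.67.0. Other tools were SciPy 1.17.1, matplotlib 3.10.9, pandas 2.3.3 and NumPy 2.4.6 under Python 3.11.15. Scripts were tested on simulated data. The members and gene lists were chosen with earlier results of these data known. Named genes are every Zscan4 copy, list genes past 2-fold, the 3 highest activators, repressors and KDM4 genes in WT, chromosome 7 neighbours with at least 0.25 RPKM and the 10 nearest probes in pattern. Zscan10, Pou5f1, Ddit4l, Pif1, Zfp551, Gm10991, H3f3a, Hprt, Kdm4d and Dux were named in addition, with their values seen, as were the markers at 0. The lists of markers and pathway genes hold 150 names, of which 131 had a probe. Alternatives were other pseudocounts, filters, scalings and thresholds.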

Additional observations from a re-analysis of the deposited data

How the results depend on the processing

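The log2 ratios of the 5 members stayed below 0 in all 30 alternative values, 1 per member and setting. Adding the same amount to both levels cannot change a sign, and the other settings were small beside these ratios. Nothing is therefore read from the unchanged sign. The count of members more than 2-fold lower was 5 at every alternative setting tried on it but 1. Adding 1 RPKM to both values left 4, since Zscan4e then had -0.99. The median of the members, -4.64, was -3.18 with 0.1 RPKM added and -1.27 with 1 RPKM added, as a pseudocount above the G34R levels compresses the ratio by construction. It stayed between -4.60 and -4.39 with 0.01 RPKM added, with both libraries set to the same RPKM sum, with ratios centred on the median (a shift of -0.05) and with rounding turned against the difference. The summed ratio, -4.58, was -4.62 over all 6 copies, -4.57 without Zscan4-ps2 and -4.53 at the same RPKM sum. Of the other 2-cell genes, 7 were more than 2-fold lower. That count was 0 with 1 RPKM added, 18 of 24 with no filter and 2 of 4 with at least 1 RPKM in 1 library. It was 6 at the same RPKM sum or centred on the median. With no filter, genes close to the 0.01 RPKM floor are counted. The share of all probes was not taken at these settings, so nothing is read from the counts. No paired analysis was possible because each cell line had 1 library, and for the same reason no library could be left out. Depth limits the G34R levels of single members, which rest on 5 to 18 estimated reads.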
